A study of Homo sapiens with 16 samples.

Results

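The core spliceosome subunits are 58 genes for proteins of the U1, U2, U4/U6, U5 and U11/U12 particles, the Sm and LSm rings, the SF3 complexes, the PRP19-related proteins and the DEAH helicases. They were taken as a list of symbols and not selected by a measured value, though with earlier results of these data known. All 58 were found among 58676 genes of the count tables. The RNA came from 2 established human cancer lines, the lung line A549 and the triple-negative breast line SUM159. Cells of each line were untreated (UT), or received 2 µM palbociclib (PD), an inhibitor of CDK4 and CDK6, or 3 µM indisulam (IN), a sulfonamide that recruits the splicing factor RBM39 to the DCAF15 ubiquitin ligase, or both drugs at those doses (P+I), for 16 h. Within a line no other agent or genotype set the groups apart. The lines differed in medium, A549 in RPMI and SUM159 in DMEM/F12 with added insulin and hydrocortisone, so that line and medium cannot be told apart. Each of the 8 groups had 2 libraries, described by the study as technical duplicates, so that p-values measure the spread between such duplicates and not between independent cultures.

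The spliceosome removes introns from pre-mRNA and is built anew on each intron. U1 binds the 5′ splice site, while SF1 and the U2AF proteins mark the branch point and the 3′ splice site before U2 takes their place. The U4/U6.U5 tri-snRNP then joins, U1 and U4 leave, and the PRP19-related proteins and the DEAH helicases drive the rearrangements that lead to catalysis and release. Each snRNA except U6 carries a ring of Sm proteins, U6 carries the LSm ring, and a separate machine with U11 and U12 removes a rare class of introns.

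Promoters were examined because most members moved together with palbociclib. RefSeq promoters on GRCh38.p14 were at hand for 51 of the 58 members. SNRPD1, PRPF39, LSM6, SF3B3, PUF60, PRPF3 and SNRNP35 had no entry. Within the 250 bases before the start, the ETS word CCGGAAG, searched on both strands, occurred in 26 of 51 members (51.0%). The same word occurred in 8.82% of 27305 promoters of that length in all, and in 14.7% of the 12340 that belonged to genes tested in either line. The CCAAT box (CCAAT, both strands) was in 43.1% of the members and in 33.0% of all promoters. Words bound by E2F factors (TTTCCCGC, TTTGGCGC, TTTCGCGC and TTTGCCGC, both strands) were in 1 of 51 members (1.96%) and in 2.79% of all promoters. The E-box CACGTG was in 7.84% of members and 6.49% of all promoters, the NRF1 word GCATGCGC in 5.88% and 2.81%, and the TATA box TATAAA in 3.92% and 11.1%. Among promoters of tested genes the shares were 34.9% for the CCAAT box, 4.15% for E2F words, 8.52% for the E-box, 4.48% for NRF1 and 6.005% for TATA, which turns the direction for the E-box and narrows the gaps for NRF1 and TATA. These matches are descriptions of letters and not of binding. With palbociclib, the median log2 change was -0.34 in members with the ETS word and -0.43 in those without it in A549, and -0.31 and -0.41 in SUM159. By count, 22 of 26 members with it and 22 of 25 without it were lower in A549, and 22 of 26 and 23 of 25 were lower in SUM159.

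The promoters of 5 members are shown, chosen from members described below whose window held no annotated exon of GENCODE 44. They are printed 5′ to 3′ on the strand of the gene, and capitals mark the ETS word, which lay 77 bases before the start in BUD13 and 83 bases before it in AQR.
BUD13 (chr11:116772988-116773237, strand minus): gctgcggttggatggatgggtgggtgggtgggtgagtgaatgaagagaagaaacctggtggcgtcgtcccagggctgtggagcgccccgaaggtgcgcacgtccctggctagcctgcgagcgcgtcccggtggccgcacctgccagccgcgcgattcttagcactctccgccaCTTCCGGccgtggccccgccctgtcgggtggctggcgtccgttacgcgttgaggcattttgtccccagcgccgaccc
AQR (chr15:34969743-34969992, strand minus): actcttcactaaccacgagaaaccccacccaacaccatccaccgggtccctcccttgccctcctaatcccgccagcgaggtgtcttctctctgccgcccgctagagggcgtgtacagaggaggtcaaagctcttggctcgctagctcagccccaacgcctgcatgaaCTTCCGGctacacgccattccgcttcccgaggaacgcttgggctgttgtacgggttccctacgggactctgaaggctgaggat
SNRNP48 (chr6:7589948-7590197, strand +): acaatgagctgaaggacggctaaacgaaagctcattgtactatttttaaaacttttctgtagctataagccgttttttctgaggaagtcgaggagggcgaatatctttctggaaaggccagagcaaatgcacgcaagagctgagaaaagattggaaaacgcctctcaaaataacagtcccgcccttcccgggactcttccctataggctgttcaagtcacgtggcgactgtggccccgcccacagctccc
SF3B5 (chr6:144095574-144095823, strand minus): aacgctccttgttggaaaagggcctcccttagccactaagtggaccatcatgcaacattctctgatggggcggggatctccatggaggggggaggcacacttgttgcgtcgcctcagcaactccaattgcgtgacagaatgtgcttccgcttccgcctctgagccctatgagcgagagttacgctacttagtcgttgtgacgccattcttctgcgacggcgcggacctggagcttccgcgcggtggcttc
CDC5L (chr6:44387456-44387705, strand +): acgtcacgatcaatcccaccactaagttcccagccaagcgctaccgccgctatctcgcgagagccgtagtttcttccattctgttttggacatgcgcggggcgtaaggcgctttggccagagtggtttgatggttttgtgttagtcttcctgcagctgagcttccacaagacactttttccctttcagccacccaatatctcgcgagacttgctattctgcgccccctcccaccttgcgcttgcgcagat
BUD13 was among the 3 largest falls with palbociclib in both lines, SNRNP48 was the largest fall with indisulam in both, SF3B5 was the single rise with palbociclib, and CDC5L was among the 3 largest rises with indisulam in SUM159. AQR had the largest fall of a member from A549 to SUM159 in untreated cells. The ETS word was present in the first 2 of these windows and in none of the other 3.

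Libraries held from 18306636 to 34075588 gene counts, and 3 counts, the smallest level taken as seen, stood for 0.0880 to 0.164 CPM (counts relative to library size), a limit that covers counting error only. Reads in no annotated feature made up 4.02% to 4.57% of untreated A549 libraries, 5.70% to 5.97% with indisulam, 3.89% to 3.99% in untreated SUM159 and 5.70% to 6.08% with indisulam, and they also made up 4.96% to 5.45% of SUM159 libraries with palbociclib and 5.94% to 6.78% with both drugs, and 4.17% to 4.71% and 4.83% to 5.66% of those of A549. The mitochondrial share of gene counts in SUM159 was 1.83% to 3.44% untreated, 4.78% to 5.57% with palbociclib, 5.33% to 5.44% with indisulam and 6.29% to 6.85% with both, and in A549, in that order, 6.73% to 7.28%, 5.79% to 7.15%, 7.43% to 8.75% and 6.19% to 7.74%. The part of either share in the results was not tested. In untreated A549, KRT8 stood at 5459.8 and 5311 CPM and KRT18 at 5074 and 5001 CPM, while the lung lineage marker SFTPB was at 0 and SFTPC and NKX2-1 were at or near the limit of 3 counts, with at most 0.160 CPM. Untreated SUM159 had VIM at 3899 and 3756 CPM, ESR1 at 0.363 and 0.408 CPM, PGR at 0 and ERBB2 at 92.6 and 95.7 CPM. RBM39 mRNA rose by 1.06 on the log2 scale (SE 0.04, adjusted p = 1.51e-10) in A549 and by 1.09 (SE 0.04, adjusted p = 3.66e-12) in SUM159 with indisulam, which is a measure of its RNA and not of its protein. In bulk RNA, fewer cells of a type and less RNA per cell cannot be told apart. Counts were made per gene, so correctly spliced and wrongly spliced transcripts of a member cannot be told apart either. The study reported more splicing errors with indisulam and with both drugs in these lines.

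All 58 members passed the filter on low counts in both lines. Per kilobase of the longest annotated transcript, members in untreated cells ranged over more than an order of magnitude. The role median was highest for the U1 proteins (81.5 CPM per kb in A549, 75.04 in SUM159) and lowest for the U11/U12 proteins. SNRPD2, a subunit of the Sm ring, had 217 CPM per kb in A549 and 180.3 in SUM159, where it ranked highest of the members in both lines on this scale, though with the union of exons as the length its rank in SUM159 was 3. LSM8, the subunit that marks the nuclear LSm ring on U6, had 4.30 and 2.97 CPM per kb, the lowest apart from U2AF1 on this scale. That value rests on a longest transcript of 12384 bases. Before division by length its mean was 53.3 CPM in A549 and 36.8 in SUM159. This was above LSM6 and LSM7 and below LSM3, LSM4 and LSM5 in both lines. The median over the 3 U11/U12 proteins was 9.33 CPM per kb in A549 and 9.09 in SUM159, against 41.1 and 51.5 over the 11 U2 proteins. U2AF1, which reads the AG at the 3′ splice site, was listed at 0.775 and 1.13 CPM in untreated A549 and 2.03 and 2.63 CPM in untreated SUM159. That level is uncertain, because 66.8% of the 75-base windows of its longest coding transcript also lie elsewhere in the genome, and 65.2% of all its windows match a copy on chromosome 21 at 6484623 to 6496930, and reads with no unique place are not counted. SNRPA1 shared 39.6% of its windows with other sites, SNRPG 15.9% and SNRPE 12.7%, while 39 of 58 members shared none. Exons of SNRPB, SNRPD3, SNRPA1, U2SURP, SNRNP200 and SNRNP27 overlapped a gene on the same strand, over part of their exonic length. Exons of further members overlapped a gene on the other strand, among them PRPF39, EFTUD2, SF3A1, PRPF8, SNRPA and DHX8. Their counts are uncertain too, because the strand setting of the counting is not given.

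Untreated SUM159 cells held more mRNA of many members than untreated A549 cells. With the 16 libraries in 1 fit, 30 members were higher and 16 lower in SUM159 (51.7% and 27.6% of members, against 38.3% and 38.0% of 17764 genes tested). The median over members was 0.18 on the log2 scale, against -0.01 over all genes. PRPF4, a U4/U6 protein, stood at 73.96 and 70.8 CPM in A549 and at 151 and 149 CPM in SUM159 (log2 change 1.05, SE 0.05, adjusted p = 2.59e-16). EFTUD2, the GTPase of U5, stood at 234 and 236 CPM and at 435 and 452 CPM (log2 change 0.92, SE 0.04, adjusted p = 7.26e-16). The duplicates of these 2 genes lay close together and far from the other line. AQR, an intron-binding helicase-like protein, went the other way, from 185 and 192 CPM in A549 to 105 and 109 CPM in SUM159 (log2 change -0.81, SE 0.05, adjusted p = 2.95e-14). U2AF1 had the largest increase by value (log2 change 1.17, SE 0.33, adjusted p = 0.0029), with the uncertainty given above. SNRNP40, SF3A3, LSM2, LSM6 and DHX16 were each higher by 0.73 to 0.78. Scaling by total counts alone gave 35 higher and 11 lower members, against 7436 and 6108 of 17764 genes under that scaling. Leaving out untreated A549 replicate 1 also moved the counts of members.

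**Figure D1:**
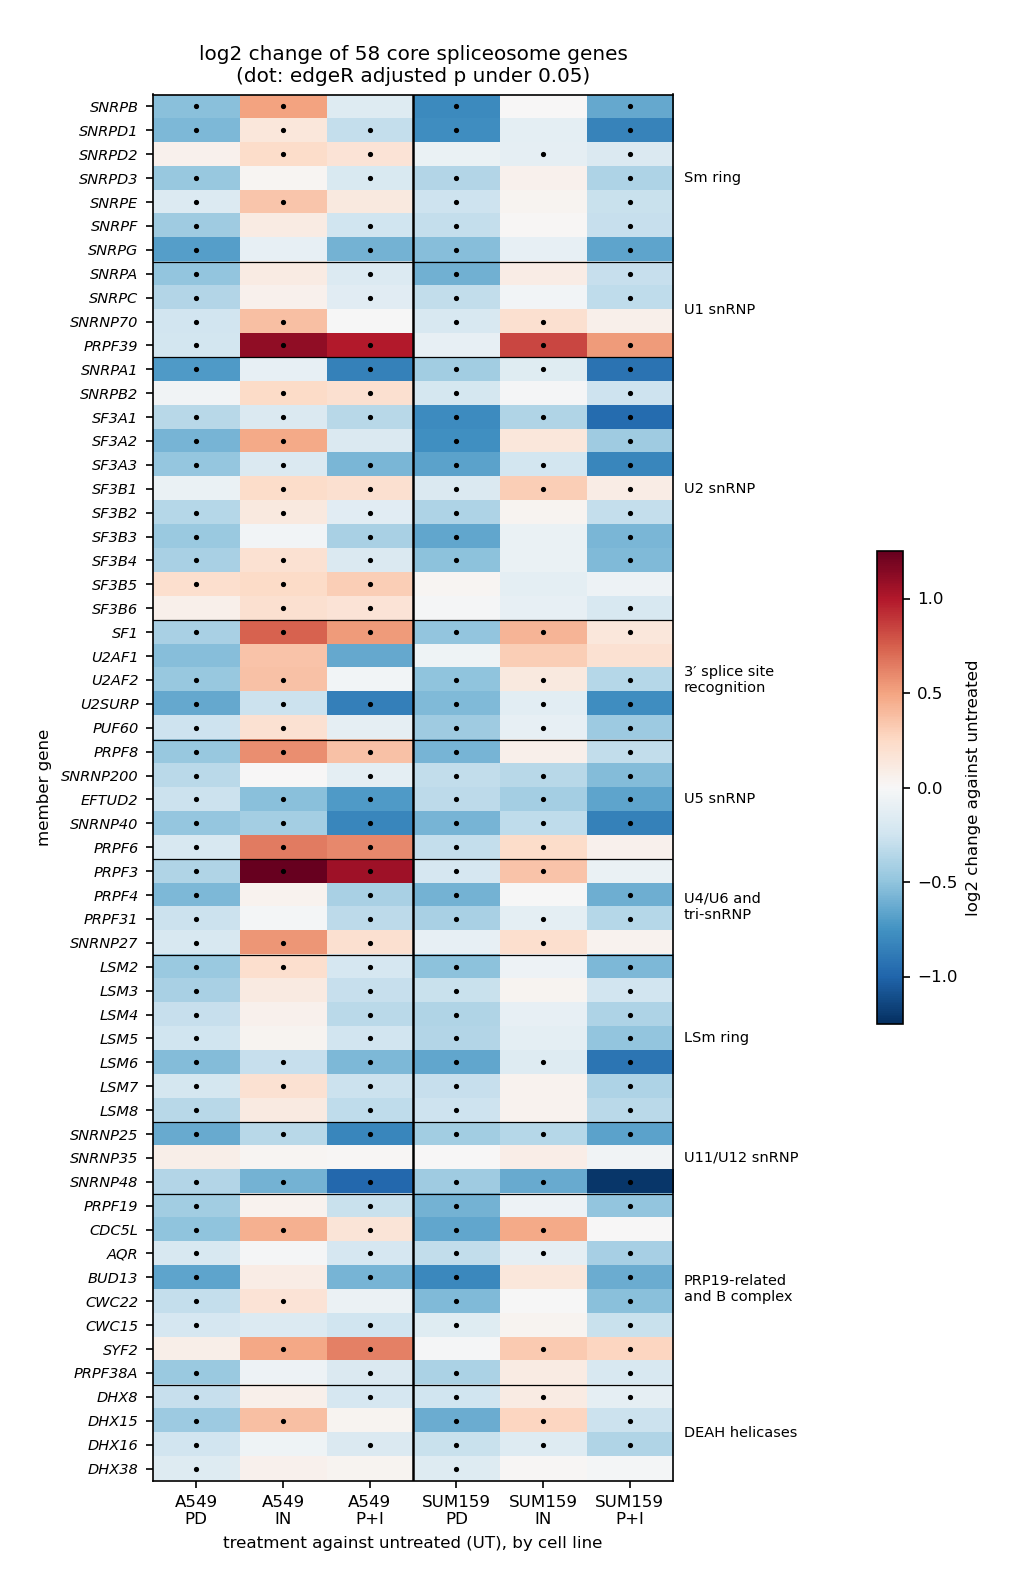
Colours give the log2 change of each of the 58 members (rows, grouped by role) against untreated cells for palbociclib (PD), indisulam (IN) and both (P+I) in each line (columns), and dots mark an edgeR adjusted p under 0.05. The PD columns are blue in nearly every row, with 50 members lower in each line, while the IN columns hold both colours.

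With palbociclib the mRNA of most of the list was lower in both lines. In A549, 50 of 58 members were lower and 1 was higher (86.2% and 1.72%), against 21.1% lower and 22.0% higher of 15744 genes tested. In SUM159, 50 were lower and 0 higher in edgeR (86.2% and 0%), against 29.0% and 25.5% of 16080 genes. At an unadjusted p under 0.05, where 9533 genes passed in either direction, and in DESeq2, 0 members were higher. The changes were small: the median log2 change of members was -0.37 for A549 and -0.38 for SUM159, a level 1.29 and 1.30 times lower, while the median of all genes was 0.03 and 0.02. Between the lines, 48 members were lower in both, 96.0% of each line's 50. The like overlap over all genes was not counted, for this or the other treatments, so no overlap is read as particular to the members.

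Every role took part. All 7 LSm proteins, all 5 U5 proteins and all 4 DEAH helicases were lower in both lines, and so were 6 of the 7 Sm proteins. The role medians ran from -0.26 (DEAH helicases) to -0.48 (Sm ring) in A549, and from -0.25 (U1) to -0.49 (3′ splice site recognition) in SUM159. SNRPD2, SF3B6, SYF2, SNRNP35 and U2AF1 did not pass the test in either line.

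SNRPA1, a U2 protein that binds a stem of the snRNA, had 73.7 and 75.1 CPM in untreated A549 and 45.5 and 45.6 CPM with palbociclib. It fell by 0.71 on the log2 scale (SE 0.05, adjusted p = 8.51e-08), the largest fall of a member in that line, and the groups did not overlap. In SUM159 it had 80.1 and 80.1 CPM untreated and 60.1 and 58.4 CPM with palbociclib (log2 change -0.44, SE 0.05, adjusted p = 4.11e-07). SNRPG, the smallest Sm protein, had 100.5 and 90.3 CPM in untreated A549 and 59.8 and 58.6 CPM with the drug. Its duplicates also stood apart by treatment, and it fell by 0.69 on the log2 scale (SE 0.06, adjusted p = 3.61e-07).

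BUD13, a subunit of the retention and splicing complex, was low in level here. It had 20.1 and 20.5 CPM in untreated A549 and 13.7 and 12.2 CPM with palbociclib, and it fell by 0.66 on the log2 scale (SE 0.10, adjusted p = 8.14e-05). In SUM159 the values were 37.8 and 34.4 CPM untreated and 20.6 and 20.7 CPM treated. There it fell by 0.81 on the log2 scale (SE 0.06, adjusted p = 1.24e-08), the largest fall of a member in SUM159.

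SNRPB, which encodes the B and B′ proteins of the Sm ring, had 163 and 160.3 CPM in untreated SUM159 and 92.3 and 93.4 CPM with palbociclib, and it fell by 0.80 on the log2 scale (SE 0.04, adjusted p = 1.74e-11). In A549 it had 163 and 153 CPM and 103 and 117 CPM (log2 change -0.52, SE 0.08, adjusted p = 6.2e-05). SF3A1, the subunit of SF3A that also contacts U1, had 252 and 254 CPM in untreated SUM159 and 143 and 149 CPM with the drug, and it fell by 0.79 on the log2 scale (SE 0.04, adjusted p = 1e-11). In A549 it had 164 and 160.2 CPM and 126 and 128 CPM (log2 change -0.35, SE 0.04, adjusted p = 1.17e-05). For both genes the duplicates of a group lay closer together than the groups.

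The single rise belonged to SF3B5, a small subunit of SF3B. It had 48.5 and 48.1 CPM in untreated A549 and 53.3 and 58.2 CPM with palbociclib (log2 change 0.21, SE 0.07, adjusted p = 0.019). This call was lost in DESeq2 (adjusted p = 0.072) and without untreated replicate 1, untreated replicate 2 or palbociclib replicate 2 (adjusted p = 0.0814, 0.094 and 0.208). In SUM159 its values were 81.9 and 79.1 CPM untreated and 85.2 and 78.9 CPM treated (log2 change 0.02, SE 0.05, adjusted p = 0.702).

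**Figure D2:**
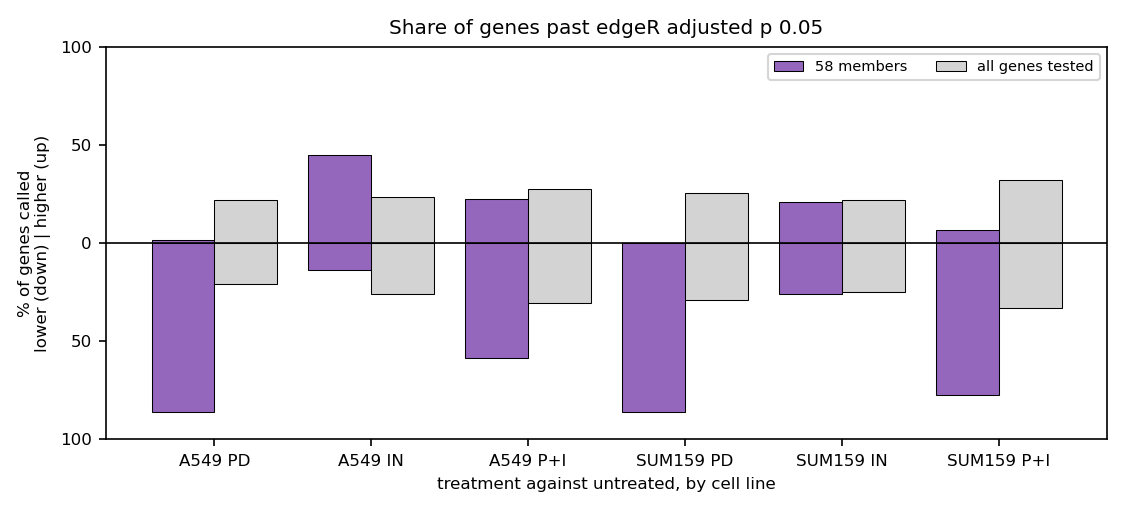
Bars give the percentage of genes called higher (up) or lower (down) against untreated cells at an edgeR adjusted p under 0.05, for the 58 members and for all genes tested, by line and treatment. Members called lower reach 86.2% with palbociclib in both lines, against 21.1% and 29.0% of all genes.

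With indisulam members moved both ways. In A549, 26 members were higher and 8 lower (44.8% and 13.8%), against 23.3% and 25.9% of all genes. In SUM159, 12 were higher and 15 lower (20.7% and 25.9%), shares near those of all genes (21.9% and 24.9%). The member median was 0.11 in A549 and -0.00027 in SUM159. With scaling by total counts the SUM159 calls became 18 higher and 8 lower, against 4336 and 3159 of 16080 genes under that scaling. They also moved without indisulam replicate 2, so no lean to either side is read from SUM159. In both lines 11 members were higher, 42.3% of those higher in A549 and 91.7% of those higher in SUM159. Another 8 were lower in both, 100% of those lower in A549 and 53.3% of those lower in SUM159. SNRPD2 and PUF60 were higher in A549 and lower in SUM159.

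PRPF3, a protein of the U4/U6 particle, had 51.1 and 55.6 CPM in untreated A549 and 127 and 125 CPM with indisulam. It rose by 1.24 on the log2 scale (SE 0.06, adjusted p = 1.23e-09), a 2.37-fold level. In SUM159 the same gene had 82.5 and 78.4 CPM untreated and 100.3 and 106 CPM with the drug, and it rose by 0.36 on the log2 scale (SE 0.04, adjusted p = 5.79e-06). Treated duplicates lay above untreated ones in both lines.

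PRPF39 binds U1 and helps it hold weak 5′ splice sites. It had 35.3 and 37.5 CPM in untreated A549 and 78.3 and 78.6 CPM with indisulam, and it rose by 1.11 on the log2 scale (SE 0.06, adjusted p = 5.55e-09). In SUM159 it had 50.8 and 45.4 CPM and 87.3 and 84.2 CPM, and it rose by 0.83 on the log2 scale (SE 0.06, adjusted p = 5.94e-09), the largest rise of a member in that line. The treated duplicates lay above the untreated ones in both lines. SF1, the branch point binding protein, had 339 and 328 CPM in untreated A549 and 563 and 546 CPM with indisulam, and it rose by 0.73 on the log2 scale (SE 0.04, adjusted p = 2.37e-09). In SUM159 it had 375 and 371 CPM and 497 and 506 CPM (log2 change 0.43, SE 0.03, adjusted p = 2.83e-08).

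CDC5L, a core protein of the PRP19 complex, rose in both lines. It had 119 and 121 CPM in untreated SUM159 and 167 and 165 CPM with indisulam, and it rose by 0.47 on the log2 scale (SE 0.04, adjusted p = 6.98e-08). The A549 values were 89.2 and 90.5 CPM and 123 and 121 CPM (log2 change 0.44, SE 0.04, adjusted p = 1.23e-06). Among other members, PRPF6, which bridges the parts of the tri-snRNP, rose by 0.65 in A549 and 0.23 in SUM159. SNRNP27, a tri-snRNP protein whose exons overlap MXD1, rose by 0.55 and 0.21. PRPF8, the scaffold around the catalytic centre, rose by 0.58 in A549 and had a log2 change of 0.06 in SUM159 (adjusted p = 0.265).

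SNRNP48 and EFTUD2 had the 2 largest falls with indisulam in both lines. SNRNP48, a U11 protein that contacts the 5′ splice site of minor introns, had 32.2 and 30.8 CPM in untreated A549 and 22.1 and 19.8 CPM with the drug, and it fell by 0.59 on the log2 scale (SE 0.08, adjusted p = 2.59e-05). In SUM159 it had 42.8 and 37.6 CPM and 26.3 and 25.7 CPM, and it fell by 0.63 on the log2 scale (SE 0.07, adjusted p = 1.76e-06). Treated and untreated duplicates did not overlap. Its neighbour in U11, SNRNP25, fell by 0.34 and 0.35, while SNRNP35, the other U11/U12 member, had changes of 0.02 and 0.08 that did not pass (adjusted p = 0.875 and 0.45).

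EFTUD2 had 226 and 228 CPM in untreated A549 and 155 and 161 CPM with indisulam, and it fell by 0.52 on the log2 scale (SE 0.05, adjusted p = 5.46e-07). Its SUM159 values were 462 and 477 CPM and 345 and 355 CPM (log2 change -0.42, SE 0.04, adjusted p = 5.18e-08). SNRNP40, a propeller protein of the same U5 particle, had 53.02 and 50.4 CPM in untreated A549 and 37.96 and 39.2 CPM with the drug (log2 change -0.42, SE 0.06, adjusted p = 3.08e-05). Within U5, then, PRPF8 and PRPF6 rose and EFTUD2 and SNRNP40 fell in A549. SF3A1 had 252 and 254 CPM in untreated SUM159 and 193 and 196 CPM with indisulam, and it fell by 0.38 on the log2 scale (SE 0.04, adjusted p = 2.5e-07). The change in A549 was smaller, from 164 and 160.2 CPM to 146 and 141 CPM (log2 change -0.18, SE 0.04, adjusted p = 0.0031).

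**Figure D3:**
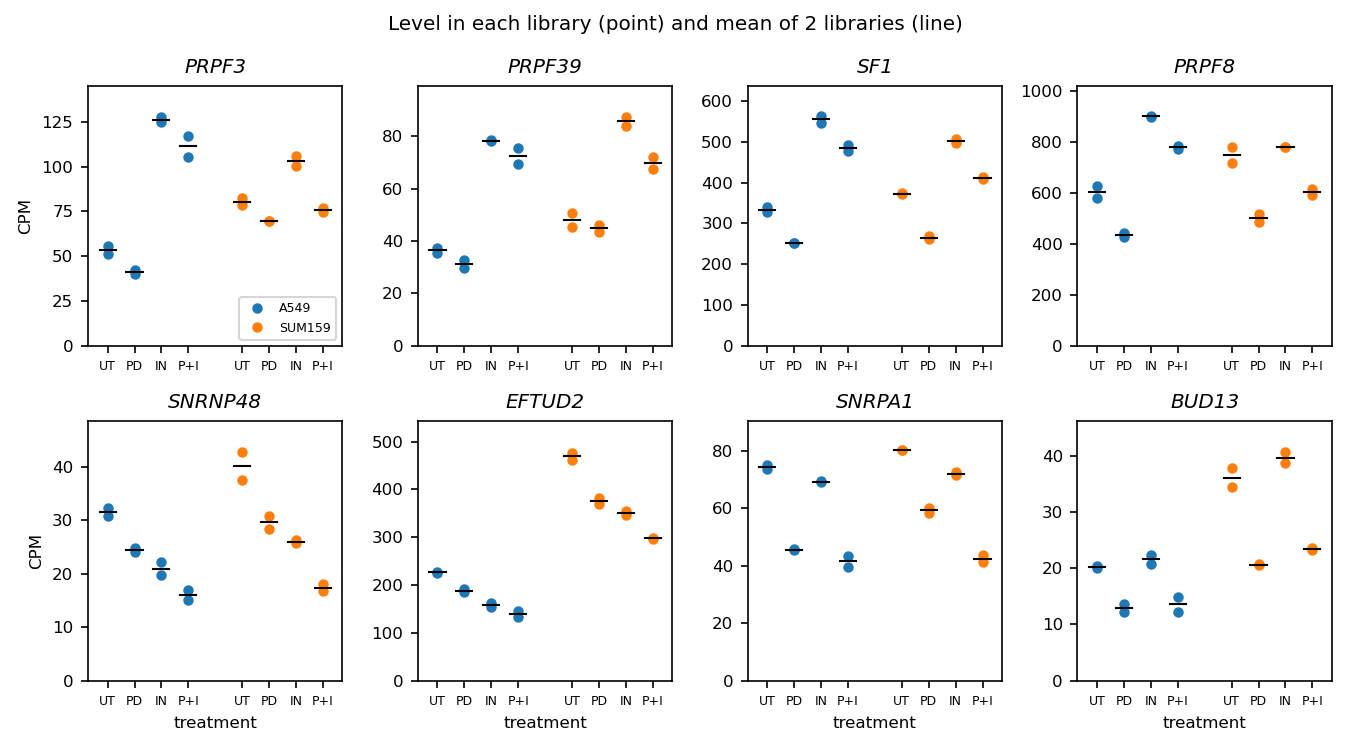
Points give CPM (scaled library sizes) in each library for 8 members and lines give the mean of the 2 libraries, for untreated (UT), palbociclib (PD), indisulam (IN) and both drugs (P+I), with A549 in blue and SUM159 in orange. PRPF3 rises from 51.1 and 55.6 to 127 and 125 CPM with indisulam in A549, and SNRNP48 is lowest with both drugs in both lines.

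With both drugs, the list again lay mostly below untreated cells in both lines. In A549, 13 members were higher and 34 lower (22.4% and 58.6%), against 27.4% and 30.4% of all genes. In SUM159, 4 were higher and 45 lower (6.90% and 77.6%), against 32.2% and 33.1%. The member median was -0.18 and -0.36. Scaling by total counts shifted the median of all genes by 0.09 in A549 and 0.15 in SUM159. It gave 16 higher and 22 lower members in A549, against 5342 and 3907 of 15744 genes. In SUM159 it gave 9 and 37, against 6820 and 3785 of 16080 genes. In both lines 34 members were lower, 100% of those lower in A549 and 75.6% of those lower in SUM159, and PRPF39, SF3B1, SF1 and SYF2 were higher in both. SNRPD2, SNRPB2, SF3B6 and PRPF8 were higher in A549 and lower in SUM159.

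Set beside the single drugs, which share the untreated libraries with the combination, the 7 members lower with palbociclib, higher with indisulam and higher with both drugs in A549 were PRPF39, SF1, PRPF8, PRPF6, PRPF3, SNRNP27 and CDC5L. A further 8 with those opposite single-drug calls did not pass with both drugs, among them SNRPB, U2AF2 and DHX15, and 5 were lower, among them SNRPD1 and SF3B4. The 8 members lower under all 3 treatments in A549 were SF3A1, SF3A3, U2SURP, EFTUD2, SNRNP40, LSM6, SNRNP25 and SNRNP48. These 8 were also among the 14 lower under all 3 treatments in SUM159. How often all genes had these patterns was not counted, so none is read as particular to the members.

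SNRNP48 had the largest fall of a member with both drugs in both lines. It had 15.1 and 16.9 CPM in A549, and it fell by 0.98 on the log2 scale (SE 0.08, adjusted p = 1.22e-07). In SUM159 it had 16.8 and 17.99 CPM, and it fell by 1.21 on the log2 scale (SE 0.07, adjusted p = 2.48e-10), a level 2.32 times lower. These are the lowest of its 8 libraries in each line. SNRPA1 had 39.6 and 43.4 CPM in A549 (log2 change -0.84, SE 0.06, adjusted p = 8.46e-09) and 41.2 and 43.6 CPM in SUM159 (log2 change -0.92, SE 0.05, adjusted p = 2.5e-11). U2SURP, a U2-associated protein with an SR-like tail whose exons overlap PAQR9-AS1, had 262 and 275 CPM in untreated A549 and 139 and 158 CPM with both drugs, and it fell by 0.86 on the log2 scale (SE 0.05, adjusted p = 3.97e-09). SF3A1 stood at 129.9 and 129 CPM in SUM159 with both drugs, and it fell by 0.97 on the log2 scale (SE 0.04, adjusted p = 4.22e-13).

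Among the rises with both drugs, PRPF3 had 106 and 117 CPM in A549, and it rose by 1.06 on the log2 scale (SE 0.06, adjusted p = 1.9e-09). In SUM159 it had 76.8 and 74.7 CPM, near its untreated level (log2 change -0.09, SE 0.05, adjusted p = 0.112). PRPF39 had 69.4 and 75.4 CPM in A549 (log2 change 0.99, SE 0.06, adjusted p = 7.18e-09) and 67.5 and 72.2 CPM in SUM159 (log2 change 0.54, SE 0.06, adjusted p = 3.61e-07), above untreated cells in both. SYF2, a protein bound to the PRP19-related complex, had 35.9 and 31.8 CPM in untreated A549 and 52.3 and 52.9 CPM with both drugs, and it rose by 0.63 on the log2 scale (SE 0.07, adjusted p = 2.67e-06). Its SUM159 values were 34.7 and 33.2 CPM and 38.7 and 43.2 CPM (log2 change 0.27, SE 0.06, adjusted p = 0.00175). SF1 had 409.8 and 413 CPM in SUM159 with both drugs (log2 change 0.14, SE 0.03, adjusted p = 0.00143), a smaller change than in A549, where it had 492 and 477 CPM (log2 change 0.54, SE 0.04, adjusted p = 2.36e-08).

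A departure from additivity was tested next, positive where the change with both drugs exceeded the palbociclib and indisulam changes added on the log2 scale. In A549, 3 members were higher and 0 lower (5.17% and 0%), against 1.49% and 2.05% of all genes. At an unadjusted p under 0.05 in edgeR there were 13 and 2 of 58, where 2940 of 15744 genes passed in either direction. DESeq2 also gave 3 and 0 there, without PRPF38A among them (adjusted p = 0.0791). The A549 count of higher members was 0 without untreated replicate 2, palbociclib replicate 2 or either indisulam library, 1 without untreated replicate 1, and 8 and 6 without combination replicate 1 and 2, so that none of the 3 calls was kept throughout. In SUM159, 3 were higher and 2 lower (5.17% and 3.45%), against 2.22% and 2.16%. For nearly all members, then, no departure was detectable with 2 libraries a group. The higher members were PRPF38A (log2 change 0.35, SE 0.08, adjusted p = 0.0365), SNRPD3 (0.27) and PRPF8 (0.26) in A549, and SNRPA (log2 change 0.22, SE 0.06, adjusted p = 0.0321), SF1 (0.21) and SF3A1 (0.20) in SUM159. PRPF38A, a protein of the B complex, had 46.97 and 48.5 CPM untreated, 34.5 and 34.7 CPM with palbociclib, 46.2 and 44.9 CPM with indisulam and 40.2 and 44.01 CPM with both in A549. SNRPA, a U1 protein that binds a stem of the snRNA, had 119 and 118, 76.8 and 78.7, 127 and 124 and 95.4 and 97.7 CPM in SUM159 in the same order. The lower members in SUM159 were SNRPA1 and PRPF3 (-0.24). For SNRPA1 the change with both drugs (-0.92) was below the sum of those with palbociclib (-0.44) and indisulam (-0.15), by 0.33 (SE 0.07, adjusted p = 0.00878), and this call was kept without each library in turn. The PRPF38A call was lost without untreated replicate 1 or 2, palbociclib replicate 1 or 2 or indisulam replicate 1 or 2, with adjusted p-values from 0.0734 to 0.179. The SNRPA call was lost without any SUM159 library but palbociclib replicate 2, with adjusted p-values from 0.0637 to 0.193. It was also lost in DESeq2 (adjusted p = 0.0665), without a filter on low counts (0.161) and with the replicate number as a block (0.0613).

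**Figure D4:**
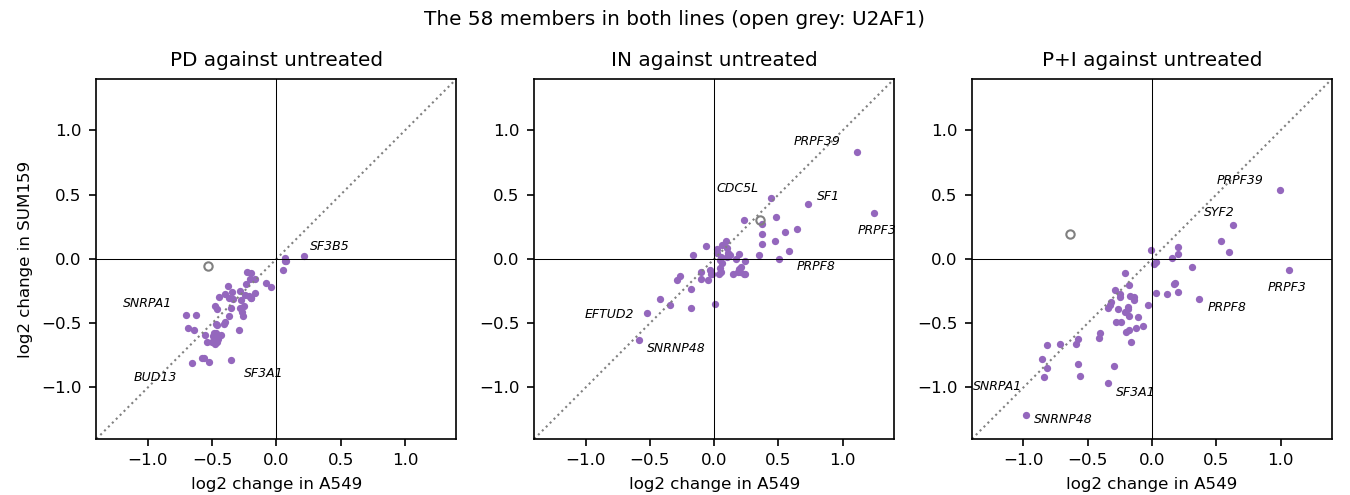
Each point is a member, with its log2 change against untreated cells in A549 (horizontal) and SUM159 (vertical) for palbociclib, indisulam and both drugs, and the dotted line marks equal changes. With indisulam and with both drugs most members above 0 in A549 lie below the dotted line, PRPF3 farthest, and U2AF1, whose counts are uncertain, is drawn as an open circle.

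The order of the members was alike in both lines. Across the 58 members, changes in A549 and SUM159 had a Pearson r of 0.76 with palbociclib, 0.82 with indisulam and 0.77 with both, beside 0.68, 0.65 and 0.67 across 14122 genes, as descriptions over genes that share libraries and scaling. An interaction term in the fit of all 16 libraries tested each difference between lines, and a negative value means a lower response in SUM159. That fit is scaled apart from the fits by line, so its values are not the subtraction of the changes given above. For indisulam, 0 members had a higher and 19 a lower response in SUM159 (0% and 32.8%), against 8.04% and 6.97% of 17764 genes. DESeq2 gave 0 and 16. At an unadjusted p under 0.05 in edgeR there were 1 and 23 of the 58, where 4864 of 17764 genes passed in either direction. The member median of the difference was -0.10, against 0.02 over all genes. PRPF3 differed most (log2 change -0.88, SE 0.08, adjusted p = 4.24e-08), followed by PRPF8 (-0.52), SNRPB (-0.50) and PRPF6 (-0.41). By role, the 19 were 4 of 7 Sm, 5 of 11 U2, 3 of 5 U5 and 3 of 5 3′ splice site proteins. The rest were 2 of 4 U4/U6 and tri-snRNP, 1 of 4 U1 and 1 of 7 LSm proteins.

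For both drugs, 1 member had a higher and 23 a lower response in SUM159 (1.72% and 39.7%), against 19.1% and 11.8%, and the member median was -0.14 where that of all genes was 0.10. PRPF3 again differed most (log2 change -1.08, SE 0.08, adjusted p = 4.02e-10), then PRPF8 (-0.61) and SF3A1 (-0.55). The count of lower responses was 38 without untreated A549 replicate 1, 38 without A549 combination replicate 1 and 36 without A549 combination replicate 2. The single higher response was that of DHX8, the helicase that releases spliced mRNA (log2 change 0.17, SE 0.06, adjusted p = 0.0446), whose values were 97.6 and 96.2 CPM untreated and 83.9 and 83.5 CPM with both drugs in A549, and 124 and 133 and 118 and 120.0 CPM in SUM159. It did not pass with either other scaling or in DESeq2 (adjusted p = 0.0645 to 0.464), nor without any of the untreated or combination libraries but untreated SUM159 replicate 2 (adjusted p = 0.0968 to 1). Without single untreated or combination A549 libraries the difference itself was 0.0031 to 0.039. With all libraries and DESeq2 size factors it was 0.083. Each fit without a library repeated the filter and the scaling over those left. Such shifts, and those in the counts above, are thus not of the left-out library alone.

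For palbociclib, 6 members had a higher response and 1 a lower response in SUM159 (10.3% and 1.72%), against 9.65% and 3.15% of all genes, whose median was itself 0.08. With DESeq2 size factors that median was -0.02 and the counts were 1 and 5, and with total counts they were 2 and 1, so the direction depends on the scaling and none is read. Without untreated A549 replicate 1 or 2 the counts were 0 and 15, and 0 and 9, and without A549 palbociclib replicate 1 or 2 they were 0 and 16, and 0 and 5. Without SUM159 untreated replicate 2 there were 2 and 1, and without SUM159 palbociclib replicate 1 there were 1 and 1. SF3A1, with a larger fall in SUM159 (log2 change -0.34, SE 0.06, adjusted p = 0.000147), kept an adjusted p under 0.05 under every alternative, though it lies below the minimum log2 change of 0.5 tried as one of them, and the difference was -0.54 without untreated A549 replicate 1 and -0.53 without A549 palbociclib replicate 1. SNRPA1 had a weaker fall (log2 change 0.37, SE 0.07, adjusted p = 0.000857). It lost its call, at 0.19 to 0.23, without any of the 4 untreated or palbociclib A549 libraries. Those fits repeated the filter and the scaling, so the shift is not that of the left-out library alone.

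Counts for other lists are to be read against the shares of all genes called in the same comparisons, given above, which ran from 21.1% to 33.1% in each direction. Of 50 further major spliceosome proteins, 0 were higher and 35 lower with palbociclib in A549 (median -0.25), and 2 and 41 in SUM159 (median -0.28). DDX46, a helicase that acts on U2, fell by 0.79 and 0.77. With indisulam 30 were higher and 4 lower in A549, and 22 and 7 in SUM159, where LUC7L, a U1-associated protein, rose by 0.89 and 0.63. The largest change of this list in SUM159 was a fall, that of PRPF40B (log2 change -0.67), and in A549 BCAS2 fell by 0.64. With both drugs the counts were 13 and 17 in A549, and 6 and 30 in SUM159. Of 20 genes for snRNP assembly and import, 0 were higher and 14 lower with palbociclib in A549 and 0 and 16 in SUM159. With indisulam there were 6 and 6 in A549, near the shares of all genes, and 3 and 9 in SUM159, and with both drugs 4 and 11, and 3 and 17. Here NCBP1, the large subunit of the nuclear cap-binding complex, had the largest change, with log2 changes of -1.09 and -1.09 with indisulam (adjusted p = 3.61e-09 and 1.07e-11), and of -1.56 and -1.59 with both drugs. WDR77, part of the methylosome that prepares Sm proteins, fell by 0.72 and 0.67 with indisulam.

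Of 9 further U11/U12 proteins, too few to read against those shares, 1 was higher and 1 lower with palbociclib in A549 and 3 and 1 in SUM159. With indisulam 5 were higher and 1 lower in A549 and 3 and 1 in SUM159, and with both drugs 4 and 2, and 4 and 1. RNPC3, the U11/U12 protein that bridges the particles, rose by 0.82 and 0.70 with indisulam, against the falls of SNRNP48 and SNRNP25. Of 8 Sm and LSm relatives outside the core list, 0 were higher and 4 lower with palbociclib in A549, 1 and 4 in SUM159, 1 and 0 with indisulam in A549, 0 and 0 in SUM159, and 0 and 2, and 1 and 6, with both drugs. SNRPN, the neuronal form of SNRPB, rose by 0.92 in SUM159 with palbociclib (adjusted p = 0.00228), where SNRPB fell. All 12 proliferation genes were lower with palbociclib and with both drugs in both lines, with medians of -1.95 and -1.57 for palbociclib and -2.31 and -2.19 for both, larger than the member medians on the log2 scale. Their part in the members' changes was not tested. With indisulam 8 of the 12 were lower in A549 and 10 in SUM159, with medians of -0.22 and -0.22.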

How the data were processed

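The deposited values are raw read counts per Ensembl gene, made by the authors, 1 table per library, with no normalization. Libraries were poly(A) and strand-specific per the study's methods. The submitters' processing notes name GRCh38, HISAT2 2.2.1 and HTSeq. The strand setting and annotation release are not given in the sources used here, so genes that overlap another on either strand (32 of 58 members) are uncertain. The replicate numbers come from the labels.

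Of 58676 identifiers, 58207 matched GENCODE 44. Rows of unassigned reads (in no feature, ambiguous or not unique) were left out of library sizes. Genes were kept with filterByExpr, scaled with TMM and tested with edgeR 4.0.16 (glmQLFit, glmQLFTest) in R 4.3.3, with Benjamini-Hochberg adjustment over all genes and a threshold of 0.05. A line's 8 libraries were fitted together, and all 16 for comparisons between lines, whose scaling differs. DESeq2 1.42.0 was an alternative. The procedure was tested on simulated data. CPM used TMM-scaled sizes. Promoter windows used the first RefSeq start listed for a symbol. No library pair was alike within sampling noise: chi-square per degree of freedom between duplicates was 1.65 to 10.0.

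Full values are given for the 3 largest increases and decreases per comparison with untreated cells among members past the threshold, at a mean of at least 5 CPM and with like-numbered libraries moving one way, and for the largest departure or line difference in each direction. Others were named as examples of a role or call. Members and lists were chosen with earlier results of these data known. Other alternatives were DESeq2 size factors, total counts, 2 filters, a minimum log2 change of 0.5, the replicate number as a block, 2 groups only and leaving out each library.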

Additional observations from a re-analysis of the deposited data

Results flagged for a closer look

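The largest difference in each direction between the lines is listed, among members called in an interaction test (edgeR). For palbociclib 6 members had a higher and 1 a lower response in SUM159, for indisulam 0 and 19, and for both drugs 1 and 23. Each value is the SUM159 minus the A549 log2 change in the joint fit of 16 libraries. Scaling there differs from that of the fits by line, so changes given per line do not subtract to it. With palbociclib the difference was 0.37 for SNRPA1 and -0.34 for SF3A1. With indisulam it was -0.88 for PRPF3. With both drugs it was -1.08 for PRPF3 and 0.17 for DHX8. The DHX8 call was lost under both other scalings, both filters, the replicate block, DESeq2 and 7 of 8 fits without a library, where the difference fell as low as 0.0031. The SNRPA1 call was lost, at 0.19 to 0.23, without any of the 4 untreated or palbociclib A549 libraries. Fits without a library repeated the filter and the scaling, so these shifts are not those of the left-out library alone. The comparisons of a line share its untreated libraries.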

How the results depend on the processing

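No log2 change given in full reversed under 473 alternative values for 41 results, of which 435 kept their side of the threshold and 38 did not pass. Of 318 alternative counts of members, 225 stayed within 1.5 times the reported count and 93 did not. Where no cause is named for a change, the cause was not tested. A minimum log2 change of 0.5 left, as higher and lower members, 0 and 10 (palbociclib), 7 and 2 (indisulam) and 5 and 10 (both) in A549, with 0 higher for the departure. In SUM159 it left 21 lower with palbociclib, 1 and 1 with indisulam, 1 and 19 with both, and 0 and 0 for the departure. For differences between lines it left 0 and 0 (palbociclib), 3 lower (indisulam), 0 and 3 (both) and 14 and 3 (untreated). Fewer calls follow there from the added criterion itself. DESeq2 gave 0 higher for palbociclib in A549, 1 lower for the SUM159 departure, and 1 and 4 for the palbociclib difference. DESeq2 size factors in edgeR gave 6 higher for the A549 departure and 1 and 5 for the palbociclib difference. Total-count scaling gave 22 lower with both drugs in A549, 1 higher with palbociclib, 8 lower with indisulam and 9 higher with both in SUM159, and 2 higher for the palbociclib difference. The counts over all genes moved under that scaling too. Without a filter there were 5 higher for the A549 departure, 0 higher for the SUM159 departure, and 2 and 2 for the palbociclib difference. A minimum of 10 counts in every library gave 7 and 1 for the SUM159 departure and 1 and 8 for the palbociclib difference. The single higher response to both drugs in SUM159 became 0 under each of these and under the replicate block.

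Leaving out 1 library at a time gave, in A549, 0 to 1 higher and 44 to 46 lower (palbociclib), 20 to 22 higher and 6 to 7 lower (indisulam), 9 to 12 higher and 27 to 33 lower (both) and 0 to 8 higher and 0 to 0 lower (departure). In SUM159 it gave 0 to 0 higher and 46 to 51 lower, 9 to 11 higher and 9 to 11 lower, 3 to 4 higher and 44 to 45 lower and 0 to 5 higher and 1 to 2 lower. The differences between lines ranged over 0 to 6 higher and 1 to 16 lower (palbociclib), 0 to 0 higher and 13 to 18 lower (indisulam), 0 to 1 higher and 20 to 38 lower (both) and 28 to 33 higher and 7 to 13 lower (untreated). A lone library was assumed to vary like the other groups. Each of these fits repeated the filter and the scaling, so a moved count does not rest on the left-out library alone. The A549 departure had 8 and 6 higher members without combination replicate 1 or 2, 1 without untreated replicate 1, and 0 without untreated replicate 2, palbociclib replicate 2 or either indisulam library. The SUM159 departure had 5 higher without palbociclib replicate 2, 1 without untreated replicate 1 and 0 without each other library.

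Same-numbered libraries deviated together with correlations of -0.140 to 0.195, so the numbers were not taken to pair the samples. With the replicate block the SUM159 departure had 1 higher and 1 lower member, and no other count but the 1 above moved by over 1.5 times. With the palbociclib numbers crossed in A549, an alternative chosen after seeing the data, 1 member was higher and 50 lower. U2AF1, listed near 1 CPM in A549, had few counts. Its level is uncertain because most of its windows also lie elsewhere in the genome, as given above.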
